A study of Rattus norvegicus with 2 samples.

Results

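The genes that build, load and carry the major histocompatibility complex (MHC), which displays peptides to T cells, were followed in the whole blood of rats given lavender oil (LO). The list held 10 genes, 4 of the class I pathway (B2m, Tap1, Tap2 and Tapbp) and 6 of the class II pathway (RT1-Da, RT1-Ba, RT1-Bb, RT1-DMa, RT1-DMb and Cd74). A gene was found on the array when the RefSeq accession of a probe led to its symbol, and 9 of the 10 genes were found, out of 8898 genes with a symbol. They had 12 probes on 21 spots, and no probe was matched to RT1-DMb. None of the 21 spots was saturated or carried a flag for a non-uniform spot or an outlier.

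The male rats were 7 weeks old when housed or first dosed, and blood was taken later, from the heart by the methods of the study and from the heart and portal vein by the sample labels. LO was given into the stomach once a day for 13 days at 5 mg/kg in 10% ethanol to 6 rats, and 6 control rats received the 10% ethanol diluent alone (0 mg/kg), with blood sampled on day 14. For the strain, the sample labels hold both Wistar and F334, and the methods of the study give Fischer F334. RNA of each group was combined into 1 pool, and the 2 pools were hybridised together on 2 Agilent rat arrays, with LO in Cy5 and the control in Cy3 on array 1 and the dyes exchanged on array 2. The 2 arrays are thus a technical dye swap and 1 replicate, so that the design holds no spread between rats and no test between the conditions is given. In pooled blood, fewer cells of a type and less RNA per cell cannot be told apart.

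MHC class I molecules, carried by nearly all nucleated cells, hold peptides made in the cytosol by the proteasome. The transporter formed by Tap1 and Tap2 moves these peptides into the endoplasmic reticulum, tapasin (Tapbp) holds the empty class I molecule at the transporter, and B2m is the light chain shared by all class I molecules. MHC class II molecules are carried mainly by B cells, monocytes and dendritic cells and hold peptides from material taken up by the cell. Their alpha and beta chains (RT1-Da, and RT1-Ba with RT1-Bb) are held by the invariant chain Cd74 until the DM molecule exchanges its remnant for a peptide. In the RefSeq order of the genome, 8 of the 10 genes lie on 1 chromosome, with Tap2 and Tap1 set between the class II chain genes and the DM genes, while B2m and Cd74 lie on others.

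Stretches of the promoters around 2 short letter patterns are shown, so that the genes of both classes can be set beside each other. The sequences are those of RefSeq for the GRCr8 build, from 250 bases before to 50 bases after the gene start, and were found for 9 of the 10 genes. Searched on both strands were GATTGG, the core of the Y box of class II promoters, and AANNGAAA, the core bound by interferon regulatory factors, and no match of one overlapped a match of the other. Capitals mark the matches, each stretch is written in the direction of its gene, and it ends before the gene start.
RT1-Da, chr20:4515345-4515390, plus strand: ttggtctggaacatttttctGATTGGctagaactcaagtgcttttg
RT1-Ba, chr20:4576993-4577038, plus strand: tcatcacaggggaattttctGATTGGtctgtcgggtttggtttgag
RT1-Bb, chr20:4604155-4604200, minus strand: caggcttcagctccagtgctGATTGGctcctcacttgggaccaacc
RT1-DMa, chr20:4712375-4712420, minus strand: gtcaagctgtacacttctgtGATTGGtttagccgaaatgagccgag
Cd74, chr18:56527100-56527147, plus strand: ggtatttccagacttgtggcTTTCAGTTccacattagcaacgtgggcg
B2m, chr3:129549162-129549290, plus strand: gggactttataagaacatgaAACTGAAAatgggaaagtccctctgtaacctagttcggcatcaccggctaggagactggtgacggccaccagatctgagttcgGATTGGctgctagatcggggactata
Tap1, chr20:4668637-4668684, minus strand: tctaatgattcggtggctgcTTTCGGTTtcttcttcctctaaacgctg
Tap2, chr20:4652308-4652361, minus strand: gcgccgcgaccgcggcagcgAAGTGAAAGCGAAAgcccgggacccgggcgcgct
Tapbp, chr20:4967878-4967921, minus strand: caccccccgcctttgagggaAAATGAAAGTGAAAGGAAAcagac

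GATTGG stood in 4 of 5 class II promoters, those of RT1-Da, RT1-Ba, RT1-Bb and RT1-DMa, and in 1 of 4 class I promoters, that of B2m. It stood in 14.8% of all 33469 promoters. AANNGAAA stood in 4 of 4 class I promoters and in 1 of 5 class II promoters, that of Cd74, against 26.4% of all. Cd74 held no GATTGG, and so carried only the pattern that all the class I promoters had. Tap1 and Cd74 carried it on the opposite strand, and Tap2 and Tapbp carried 2 and 3 overlapping copies. AANNGAAA was not set in advance, but taken after a longer form of it and a motif of the X box had been searched. Its split between the classes is therefore no support for a class difference. These matches are a description of the letters in this window, binding was not measured, and no test of the classes was made.

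Signals are given as processed signals, that is, background-subtracted and dye-normalized intensities in arbitrary units as the Feature Extraction software of the scanner wrote them. The signal of one probe is not set against that of another, apart from the choice of the bright genes to name and the sum over a marker list. The software rated 37.5% of the 41009 probes of the array as well above background in all 4 channels (2 pools on 2 arrays), and 11 of the 12 MHC probes had this rating. The blood markers set beside them were measured too. The red cell genes Hbb (a globin chain) and Alas2 (the first enzyme of heme synthesis), the platelet genes Pf4 and Gp9, the T cell receptor chains Cd3d and Cd3g, the neutrophil proteins S100a8 and S100a9, the B cell receptor part Cd79b and the monocyte enzyme Lyz2 were all above background in the 4 channels. Of the B cell list only 2 of 8 genes were matched to a probe, and of the dendritic cell list 0 of 6.

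**Figure D1:**
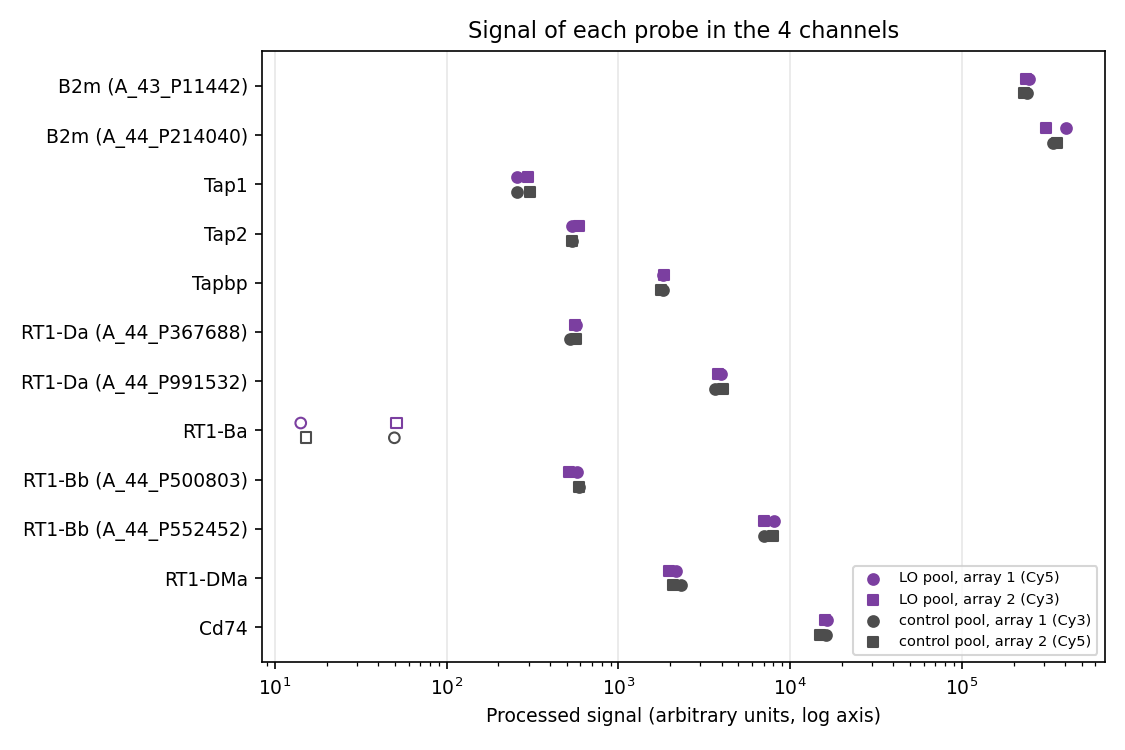
Processed signal (arbitrary units, log axis) of the 12 probes of the 9 genes in the LO pool (purple) and the control pool (grey) on array 1 (circles) and array 2 (squares). Filled points were rated well above background and open points were not. For every probe but that of RT1-Ba the 4 points lie close together, and heights are not to be compared between probes.

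For the class I genes, the 4 channels gave close values. B2m was printed on 10 spots under 1 of its 2 probes (A_43_P11442), with a mean signal of 244932 in the LO pool and 238686 in the control pool on array 1, and of 235183 and 231314 on array 2. The pools overlapped on both arrays, with spots between 237832 and 254555 (LO) and between 219028 and 251819 (control) on array 1, with medians of 244548 and 236709. On array 2 they lay between 221589 and 254580 (LO, median 238487) and between 221775 and 243783 (control, median 230196). The LO/control log2 ratio over the 10 spots was 0.04 ± 0.05 (SD, n = 10 spots) on array 1 and 0.02 ± 0.05 on array 2, and the mean of both arrays was 0.03 ± 0.03, above 0 in 8 spots and below 0 in 2. These spots share 1 hybridisation, and their SD measures the spread within an array and not between rats.

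The other B2m probe (A_44_P214040) gave 406934 for LO and 341282 for the control on array 1, and 308568 and 360371 on array 2. It was thus higher in whichever pool carried Cy5, with ratios of 1.19 and 0.856, and its geometric mean over both arrays was 1.01. Both probes of this gene therefore had a mean ratio near 1, while the part that followed the dye (the difference of the log2 ratios of the 2 arrays, divided by 2) was 0.01 on the log2 scale in the first and 0.24 in the second.

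Tap1 had signals of 258 for LO and 257 for the control on array 1, and of 299 and 304 on array 2, a mean ratio of 0.992. Tap2, its partner in the transporter, had 534 and 537 on array 1 and 590 and 537 on array 2, a mean ratio of 1.05. Tapbp had 1829 and 1817 on array 1 and 1851 and 1759 on array 2, a mean ratio of 1.03. For Tap1 and Tap2 the direction changed between the arrays, and for Tapbp the LO pool stood slightly above the control on both.

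Among the class II genes, Cd74 (the invariant chain) gave 16388 for LO and 16075 for the control on array 1, and 16060 and 14922 on array 2. LO was higher on both arrays, by ratios of 1.02 and 1.08, with a mean of 1.05. The 2 probes of RT1-Da, the alpha chain of the RT1-D molecule, had mean ratios of 1.03 (A_44_P367688) and 1.01 (A_44_P991532). The first gave 564 and 524 on array 1 and 557 and 569 on array 2, and the second 3941 and 3649, then 3795 and 4043. In both, the pool labelled with Cy5 was the higher one on each array.

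RT1-Bb, the beta chain of the RT1-B molecule, also had 2 probes. A_44_P552452 gave 8064 for LO and 7030 for the control on array 1 and 7026 and 7911 on array 2, so that the ratios of 1.15 and 0.888 opposed each other and averaged to 1.01. A_44_P500803 gave 577 and 592 on array 1 and 515 and 589 on array 2. Here LO was lower on both arrays, by ratios of 0.976 and 0.876 with a mean of 0.924, the lowest of the 11 probes, and this was not shared by the other probe of the same gene.

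RT1-DMa, a chain of the DM molecule that exchanges peptides on class II, gave 2153 for LO and 2315 for the control on array 1 and 1963 and 2070 on array 2. LO was lower on both arrays, with ratios of 0.930 and 0.948 and a mean of 0.939. Its SD between the 2 arrays, which carry the same 2 pools, was 0.02 on the log2 scale and is a technical spread only. The 95% range of the error that the software gives for the spots was wider, with mean ratios from 0.772 to 1.14. The partner chain RT1-DMb, which would be a second measure of this molecule, is not analysed here for want of a matched probe.

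RT1-Ba, the alpha chain that pairs with RT1-Bb, was not well above background in any of the 4 channels. Its signals were 14.1 for LO and 49.5 for the control on array 1, and 51.0 and 15.2 on array 2. The higher value went with Cy3 on both arrays, and no ratio is given for it.

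Set side by side, the 11 probes measured in all channels had LO/control ratios between 0.856 and 1.19 on a single array and between 0.924 and 1.05 as the mean of both arrays. The median of their mean log2 ratios was 0.01, against -0.0026 over the 15386 probes of the array with the same background rating. All 11 lay inside the range that held the central 95% of those probes (log2 -0.27 to 0.26), and 7 lay inside the middle 50% (log2 -0.06 to 0.06). LO was higher on both arrays in 3 of the 11 probes (11.7% of all such probes) and lower on both in 2 (12.7% of all). In the other 6 the direction changed with the dye.

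**Figure D2:**
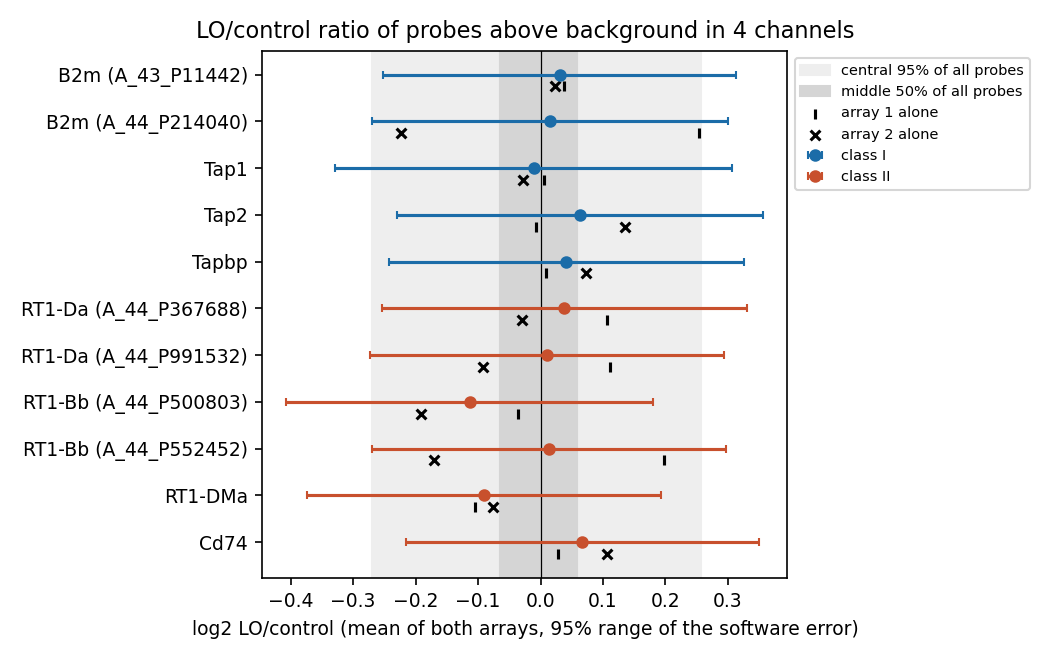
Mean LO/control log2 ratio of both arrays for the 11 probes rated above background in the 4 channels (points; class I blue, class II orange), with the 95% range that the software's error of the log ratio gives, which covers spot error only. Bars and crosses are the ratios of arrays 1 and 2 alone, and the grey bands hold the central 95% and the middle 50% of all 15386 probes. The points run from -0.11 to 0.07, and every range includes 0.

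The software also gave an error of the log ratio for each spot, which covers the measurement of the spot and not the rats. For the mean of both arrays this error was between 0.14 and 0.16 on the log2 scale in the 11 probes. Its 95% range reached a factor of 1.22 to 1.25 on either side, so that a smaller difference between the pools was not detectable by this measure. The mean ratio of all 11 probes lay within that factor of 1. For the B2m probe of 10 spots the error is the median of the spots and was not lowered for their averaging.

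Counted by a fixed limit, 0 of the 12 probes were past 1.5-fold with the same direction on both arrays, against 4.53% of all probes. With dim probes left out, this share over the array was 0.091%, with 0 of 11 here. At a limit of 1.2-fold it was 2.91%, again with 0 of 11. The study set a limit of 0.01 on the p of the scanner software, which rests on modelled spot error and is unadjusted. It also asked for opposite Cy5 to Cy3 directions on its 2 chips, and the genes entered into its network analysis had a fold limit. Whether both chips had to pass the p limit is not stated. Here the p limit had to be passed on both arrays. Towards the same pool 0 of the 12 probes did so, against 9 of all 41009 (0.0219%). Towards the same dye it was also 0 (2.64% of all). The paper lists far more genes than 9, so these counts do not apply its full selection to the MHC probes. The lowest such p of any MHC probe was 0.073, on array 2 for RT1-Ba, and among the 11 brighter probes it was 0.216, on array 1 for the second B2m probe.

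The class I genes had a median mean ratio of 1.02 (4 genes, from 0.992 to 1.05), with the probes of a gene averaged. The class II genes measured above background had a median of 0.991 (4 genes, from 0.939 to 1.05), with RT1-Ba left out. Class I therefore stood above class II by 0.05 on the log2 scale, and the ranges of the classes overlapped. On array 1 the difference was -0.05 and on array 2 it was 0.09, so that its direction was not kept between the arrays. The genes are measured in the same 2 pools and are no replicates, and no test was made of this difference.

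**Figure D3:**
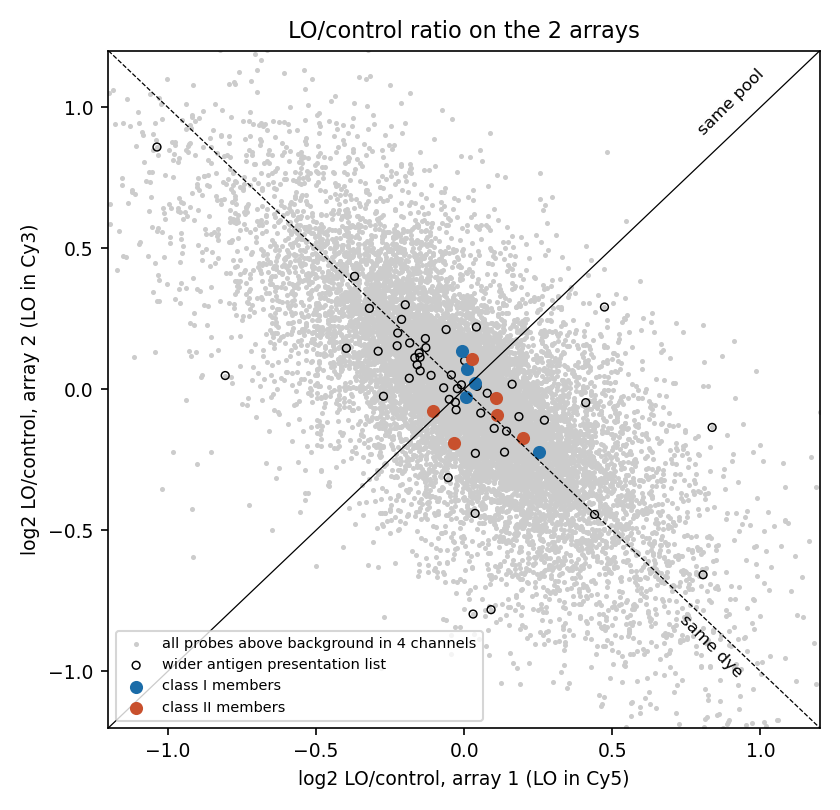
LO/control log2 ratio on array 1 (LO in Cy5) against array 2 (LO in Cy3) for all probes rated above background in the 4 channels (grey, with 96 of them outside the axes), for the wider antigen presentation list (open circles) and for the class I (blue) and class II (orange) probes. The solid line is where a difference between the pools would lie and the dashed line is where a dye difference would lie. The class I and class II probes stay near the centre, and their spread runs mainly along the dashed line. The same holds for all grey probes, with a log2 SD of 0.30 for the dye part and 0.12 for the mean of both arrays.

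The part of a ratio that followed the dye, ran from -0.07 to 0.24 on the log2 scale in the 11 probes (positive towards Cy5). Its median size was 0.07, against 0.15 over all probes with the same background rating, and the median size of the part that followed the LO pool was 0.04 against 0.06. The dye part was the larger one in 6 of the 11 probes. By definition these 6 are the probes whose direction changed between the arrays. Of all probes with the same background rating, 11.7% were higher and 12.7% lower in LO on both arrays. The dye part was thus the larger one in most probes of the array as well. The probes of 1 gene differed in it, with 0.01 and 0.24 for B2m, 0.07 and 0.10 for RT1-Da, and 0.08 and 0.18 for RT1-Bb.

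A wider list of antigen presentation genes was described in the same way. It named 68 genes, of which 44 were found with 59 probes, and 50 of these probes (39 genes) were well above background in all channels. Over the 44 genes the median log2 LO/control was -0.02, and over the 50 probes it was -0.01 with a range from -0.38 to 0.38. None of the 59 probes was past 1.5-fold in the same direction on both arrays (4.53% of all probes). With dim probes left out it was 0 of 50, and the share over the array was then only 0.091%. The count of 0 is therefore no shortfall against the brighter probes of the array. By the software's p, 0 passed on both arrays towards the same pool (0.0219% of all).

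The class I heavy chains and molecules like them, which carry the peptide groove itself, had 21 such probes. RT1-CE2 gave 55528 for LO and 62314 for the control on array 1, and 59133 and 54724 on array 2, a mean ratio of 0.981. The mean ratio was 0.979 for RT1-CE16 and 0.988 and 0.978 for the 2 probes of RT1-A2. The dye part was towards Cy3 in 17 of these 21 probes, where 48.4% of all probes had that direction, with a median of -0.12. Heavy chain genes are close copies of each other, and their probes may bind RNA of several of them, which was not tested, so that the gene names are given as uncertain.

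The genes that make and load class I peptides were measured in all channels for 8 of 8 found. Calr, a chaperone of the loading complex, had a mean ratio of 0.971. Psmb10 and Psmb9, subunits of the immunoproteasome, had 1.06 and 1.04. The median of the 8 probes was 0.01 on the log2 scale. LO was higher on both arrays in 3 (11.7% of all probes with the same background rating) and lower on both in 2 (12.7% of all such probes).

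Of the other class II chains, RT1-Db1, the beta chain that pairs with RT1-Da, had 3 probes. In 2 of them (A_44_P130513 and A_44_P130516) all channels were above background and the mean ratios were 1.02 and 1.002. The third (A_44_P139882) gave 123 for LO and 23.6 for the control on array 1, and 55.2 and 141 on array 2. It was above background only in Cy5, whichever pool carried it, and passed the software's p towards that dye on both arrays. RT1-DOb and RT1-DOa, the chains of the DO molecule that restrains DM, had mean ratios of 0.966 and 0.989.

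Of the enzymes that prepare class II peptides, Ctsb (cathepsin B) gave 396956 for LO and 292566 for the control on array 1 and 255702 and 347793 on array 2. Its ratios of 1.36 and 0.735 cancelled to 0.999. Ifi30, which reduces disulfide bonds of antigens, had a mean ratio of 1.02, and the 2 probes of Ctss (cathepsin S) had 0.998 and 0.993.

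Among the regulators, Rfxank, a part of the factor that binds class II promoters, had mean ratios of 0.992, 0.870 and 1.05 in its 3 probes. Irf1, an interferon response factor, gave 171 for LO and 97.7 for the control on array 1 and 128 and 201 on array 2, a mean ratio of 1.05. Ciita, the coactivator required for class II transcription, gave 74.99 and 154 on array 1 and 137 and 75.4 on array 2. Its ratios were 0.488 and 1.81, the software's p was 0.00113 and 0.00736, and the higher signal went with Cy3 on both arrays, so that the mean ratio was 0.940. By this p, Ciita and the third RT1-Db1 probe were the 2 of 59 probes of the wider list that passed towards the same dye, against 2.64% of all probes. Cd40, a costimulatory receptor of antigen presenting cells, had mean ratios of 1.13 and 1.01. Cd80 and Cd86 of the same subgroup were not above background in all channels.

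**Figure D4:**
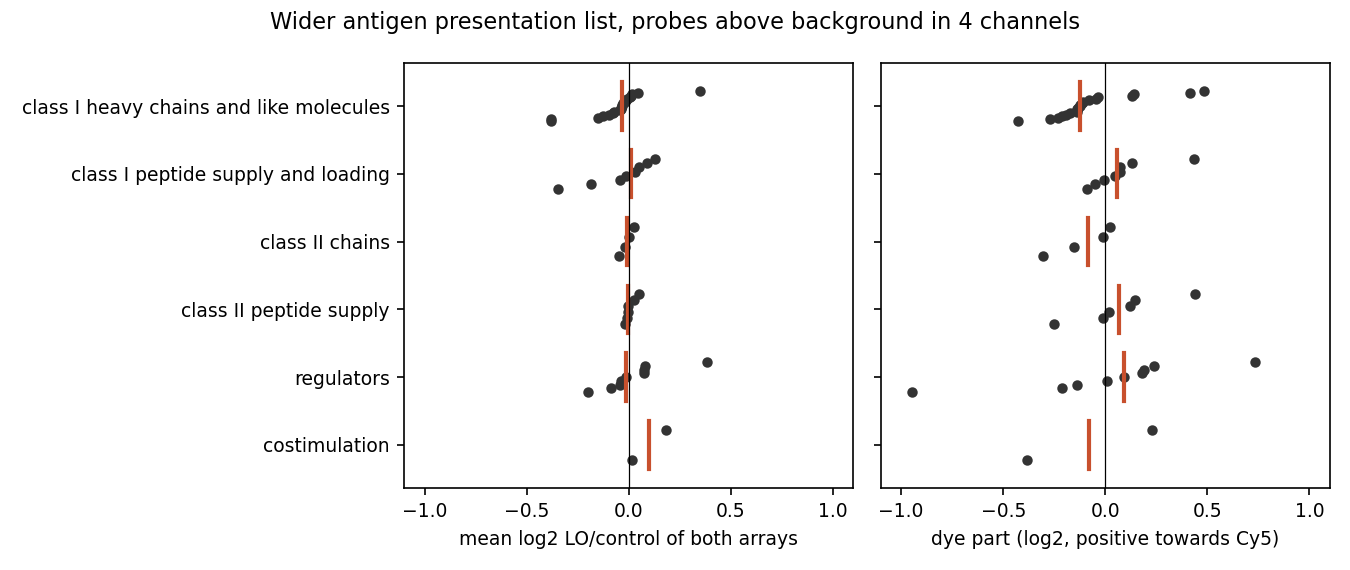
Mean LO/control log2 ratio of both arrays (left) and dye part on the log2 scale, positive towards Cy5 (right), for the 50 probes of the wider list rated above background in the 4 channels, by subgroup. Each point is a probe and each orange line is the median of a subgroup. The subgroup medians lie between -0.03 and 0.10 on the left, and the dye part reaches from -0.95 to 0.73 on the right. The median of 0.10 is that of costimulation, which rests on 2 probes of 1 gene, Cd40.

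The markers of the cells that carry class II were set beside these values. Cd79b of B cells gave 1506 for LO and 1409 for the control on array 1 and 1420 and 1318 on array 2, higher in LO on both arrays with a mean ratio of 1.07. Lyz2 of monocytes and macrophages gave 25686 and 29739, then 27277 and 31001, lower in LO on both arrays with a mean ratio of 0.872. In the monocyte and macrophage list, 9 probes were above background in all channels, and their median log2 ratio was -0.11. LO was lower on both arrays in 2 of the 9 (12.7% of all probes with this rating) and higher on both in 0 (11.7% of all). The summed signal of these 9 probes, most of it that of Lyz2, was 34227 for LO and 38572 for the control on array 1, and 36037 and 40071 on array 2. Among them Ctss had mean ratios of 0.998 and 0.993 and Fcgr3a 0.993. The part of cell numbers in the class II values was not tested.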

How the data were processed

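Whole blood RNA was pooled per group and measured on 2 two-color arrays. The authors extracted the deposited files with Agilent Feature Extraction 11.0.1.1, whose output gives each channel as a median, a background-subtracted and a LOWESS-normalized (processed) intensity. It also gives the deposited log10 ratio (Cy5 to Cy3) and its error, a p-value from an error model, and flags of 0 or 1. The deposited value table equalled the log10 ratio of the processed signals.

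Control spots and the 338 features flagged as non-uniform or outliers on either array were left out. The log2 ratio of the processed signals, LO to control, was computed per spot and averaged first within a probe and then over both arrays. A probe of several spots was called well above background in a channel when most of its spots were. For a gene, its probes were averaged. Symbols came from RefSeq accessions of a GRCr8 table (10767 of 41009 probes). The array is tied to the rn4 build, and no probe coordinates are given. The genes named were all members, the brightest genes of each subgroup of the wider list (up to 3) and of each marker list (up to 2), and Ciita and Fcgr3a, chosen after their values were seen. Not every gene under this rule is reported here. Members and lists were chosen with earlier results of these data known. The number of arrays limits the precision. The interferon motif was chosen after a longer form of it, and a motif of the X box, had been searched. The count of probes past a fold was checked on simulated data, whose outcome is not given here and on which no value in the text rests. Alternatives covered the normalization, the ratio column, flagged and dim probes, the limits and each array alone. Python 3.11.15, numpy 2.4.6, pandas 2.3.3, matplotlib 3.10.9, R 4.3.3 and limma 3.58.1 were used.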

Additional observations from a re-analysis of the deposited data

How the results depend on the processing

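No paired analysis was possible because the 2 arrays carry the same 2 pools and no group has a second sample. The median log2 LO/control of the 12 MHC probes was 0.014 and moved to -0.10 when background-subtracted signals were centred on the median without LOWESS (which gave no value for RT1-Ba), a setting that also moved the median of all brighter probes to -0.07. With 1 array alone it ran from -0.029 to 0.018. The difference of class I and class II was 0.06 when the dim probe of RT1-Ba was kept, whose own value was then the class II median, and ran from -0.020 to 0.083 with 1 array alone. It was 0.045 without dim probes, 0.012 with normexp and loess, 0.018 with the brightest probe of each gene and 0.033 with median centring. The median of the wider list was -0.02, and became -0.12 with median centring and -0.012 without dim probes, and 0.00048 to 0.011 with 1 array alone. The count of MHC probes past 1.5-fold was 0, and 1 with either array alone, which was the dim probe of RT1-Ba. The cause of these shifts was not tested. Counts past 1.5-fold or under the software's p stayed at 0 with the other settings run on both arrays, among them normexp with an offset of 50 and loess, flagged features kept, limits of 1.2-fold and 2-fold, and p under 0.05 and under 0.001. Over these settings the mean ratio of the 11 brighter probes lay between 0.881 and 1.05. Signals of dim probes limit what can be said of RT1-Ba.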

Other observations

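In the wider list, the probes with the largest mean ratios were looked up after their values were seen. Rfxap, a part of the factor that binds class II promoters, was the 1 probe of 50 past 1.2-fold in the same direction on both arrays (2.91% of all such probes). Its signals were 153 for LO and 110 for the control on array 1 and 143 and 117 on array 2, a mean ratio of 1.30, and the 95% range of the software's error was 0.954 to 1.78. For the heavy chain RT1-A3, the chaperone Canx, the heavy chain like RT1-T18 and the iron regulator Hfe, the mean ratio was 0.767, 0.787, 0.769 and 1.28, and in each of these the 2 arrays pointed in opposite directions. The range of the software's error included 1 for RT1-A3 (0.556 to 1.06) and Canx (0.599 to 1.03), and did not for RT1-T18 (0.599 to 0.988) and Hfe (1.02 to 1.60). This range leaves out the spread between the 2 arrays, a log2 SD of 0.60 for RT1-T18 and 0.69 for Hfe. The other RT1-T18 probe (A_44_P358361) had a mean ratio of 0.916 with a range of 0.742 to 1.13. These probes are extremes picked from the 50, and the share of all probes with a range that leaves out 1 was not counted.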
